A study of Arabidopsis thaliana with 16 samples.

Results

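In Arabidopsis thaliana roots, 103 of 33518 loci met a rule for strong induction by ethylene that depends on the transcription factors EIN3 and EIL1. Reads were summed over the transcript models of a locus and divided by the library total, which gives CPM, the reads of a locus per 1000000 assigned reads. The members were chosen by these values: a locus was kept where its group mean with ethylene was at least 5 CPM in Col-0, where ethylene stood at least 4-fold above untreated in both Col-0 and rhd6rsl1, and where treated ein3eil1 held at most 25% of the level of treated Col-0. The first limit left 15532 loci, the second 138, the third 113 and the last 103. These 103 members lie on all 5 chromosomes, with 18, 21, 19, 18 and 27 on chromosomes 1 to 5.

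Root RNA came from seedlings grown for 6 d on vertical MS plates and exposed to 10 ppm ethylene for 4 h, or left untreated. The groups were the treated and untreated quadruple mutant ein3eil1rhd6rsl1, the treated and untreated double mutants ein3eil1 and rhd6rsl1, and treated and untreated Col-0, the wild type. Each of the 8 groups had 2 biological replicates, and neither the mutant alleles nor whether a line is 1 isolate could be read from the labels. Transcripts of the mutated genes were still counted. Untreated ein3eil1 averaged 31.6 CPM of EIN3 and 13.2 CPM of EIL1, against 149 and 61.8 CPM in untreated Col-0. Untreated rhd6rsl1 averaged 7.88 CPM of RHD6 and 1.915 CPM of RSL1, against 23.5 and 5.764 CPM in untreated Col-0. With ethylene RHD6 averaged 15.65 CPM in rhd6rsl1 and 15.18 CPM in Col-0. Lines said below to be without a factor are lines mutated in its gene, and protein was not measured. The question, in the submitters' terms, is how EIN3/EIL1 and RHD6/RSL1 act together when ethylene makes root hairs grow.

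Ethylene is a gaseous plant hormone, perceived by receptors of the endoplasmic reticulum membrane that hold back the pathway until the gas binds. EIN2 then passes the signal on, and EIN3 and its paralogue EIL1 accumulate in the nucleus and switch on target genes. In roots the hormone slows elongation and makes root hairs longer and more numerous. RHD6 and RSL1 are bHLH transcription factors that start root hair formation, so roots without them are nearly hairless. Many early targets of EIN3 are parts of its own pathway (receptors, the F-box protein EBF2, ERF transcription factors), so that induction also builds feedback.

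The rule read 10 of the 16 libraries, those of treated and untreated Col-0, treated and untreated rhd6rsl1 and treated ein3eil1. Values of members in these libraries are therefore given as a description without a test. Untreated ein3eil1 and both groups of the quadruple mutant, 6 libraries in all, were not used by the rule, and members were tested only in comparisons between these 3 groups. The spread behind each p-value comes from 1 fit to all 16 libraries, so it also draws on the 10 that the rule read. Close inside the limits lay AT5G52050 with a mean of 5.01 CPM in treated Col-0, AT2G30660 with 4.05-fold in Col-0, EBP with 4.21-fold in rhd6rsl1, and UGT76D1 with 22.7% in treated ein3eil1. Just outside lay AT2G39400 with 4.86 CPM, PPa3 with 3.91-fold, MYB14 with 3.92-fold and CKX3 with 26.3%, each of which missed that limit alone.

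The data bear on the upstream DNA of the members, since the members were chosen because they moved together and depended on 2 DNA-binding proteins. The short word ATGTA is a core of sequences that EIN3 is known to bind. The windows below are the 250 bases upstream of the annotated start of 3 members of the ethylene pathway, printed 5′ to 3′ on the strand of the gene in lower case, with each ATGTA, or TACAT where the match is on the other strand, in capitals. They come from RefSeq's TAIR10.1 assembly, in which the ETR2 window is chr3:8254309-8254558 on the plus strand, the ARGOS window chr3:22129255-22129504 on the plus strand and the ERF1 window chr3:8295367-8295616 on the plus strand.
ETR2: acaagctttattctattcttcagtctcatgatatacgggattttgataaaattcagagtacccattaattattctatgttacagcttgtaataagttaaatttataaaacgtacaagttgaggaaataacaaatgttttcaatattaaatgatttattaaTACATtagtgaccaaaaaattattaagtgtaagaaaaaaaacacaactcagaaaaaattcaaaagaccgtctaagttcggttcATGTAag
ARGOS: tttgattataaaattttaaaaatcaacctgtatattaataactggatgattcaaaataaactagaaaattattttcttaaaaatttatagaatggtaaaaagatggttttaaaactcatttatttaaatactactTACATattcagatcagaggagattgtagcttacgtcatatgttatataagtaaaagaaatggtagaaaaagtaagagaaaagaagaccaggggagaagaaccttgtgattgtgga
ERF1: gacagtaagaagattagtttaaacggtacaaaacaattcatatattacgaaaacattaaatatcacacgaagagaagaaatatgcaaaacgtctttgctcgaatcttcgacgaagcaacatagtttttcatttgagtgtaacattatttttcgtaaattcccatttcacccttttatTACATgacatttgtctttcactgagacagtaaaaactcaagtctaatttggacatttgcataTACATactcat
In these windows ETR2 has 2 matches, 90 to 86 and 7 to 3 bases upstream of the start, ARGOS has 1, at 115 to 111 bases, and ERF1 has 2, at 73 to 69 and 11 to 7 bases.

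A second set of windows is shown because 3 members stand side by side on chromosome 5, ZFP2 (23295652 to 23296776, plus strand), XTH12 (23300321 to 23301689, minus strand) and XTH13 (23302787 to 23304095, minus strand). ZFP2 and XTH12 are direct neighbours, and 1 locus lies between XTH12 and XTH13. Their windows are chr5:23295402-23295651 on the plus strand, chr5:23301690-23301939 on the minus strand and chr5:23304096-23304345 on the minus strand, again with ATGTA or TACAT in capitals.
ZFP2: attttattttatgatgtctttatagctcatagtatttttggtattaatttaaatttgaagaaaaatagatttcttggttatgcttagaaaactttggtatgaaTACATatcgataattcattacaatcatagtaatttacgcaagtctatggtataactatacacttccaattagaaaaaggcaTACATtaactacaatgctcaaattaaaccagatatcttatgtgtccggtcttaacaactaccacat
XTH12: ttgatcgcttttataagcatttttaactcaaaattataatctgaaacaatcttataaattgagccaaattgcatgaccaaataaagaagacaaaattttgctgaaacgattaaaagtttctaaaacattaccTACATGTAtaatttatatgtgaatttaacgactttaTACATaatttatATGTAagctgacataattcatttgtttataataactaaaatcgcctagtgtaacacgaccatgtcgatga
XTH13: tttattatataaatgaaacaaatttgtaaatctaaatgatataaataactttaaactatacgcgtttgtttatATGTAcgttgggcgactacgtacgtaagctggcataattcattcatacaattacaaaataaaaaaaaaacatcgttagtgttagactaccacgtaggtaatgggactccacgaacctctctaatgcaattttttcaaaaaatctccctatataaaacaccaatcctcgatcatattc
ZFP2 has 2 matches, XTH12 has 4, of which 2 overlap on opposite strands, and XTH13 has 1. Set side by side without gaps, the XTH12 and XTH13 windows hold the same base at 73 of 250 positions (29.2%).

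Across all members with a window, ATGTA on either strand occurred in 59 of 101 (58.4%), against 11044 of 21123 tested protein-coding loci (52.3%). The longer form ATGNANCT, in which N is any base, occurred in 16 members (15.8%), against 12.3% of the tested loci. GCCGCC, the core of the box bound by ERF proteins, occurred in 4 members (3.96%), against 1.92%, and CACGTG, the G-box, in 5 (4.95%), against 7.18%. Over 1000 bases the shares of members were 92.1, 52.5, 9.9 and 12.9% in the same order, against 93.8, 48.1, 8.77 and 15.7% of the tested loci. A match describes the letters of a window and is not evidence of a binding site, and at either length the members' shares lay near those of all loci.

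The 16 libraries held 33.0 to 45.0 M assigned reads (M, mega), and replicates of a group correlated at r of 0.993 to 0.997 across loci on log2(CPM + 1). Values of a group are given as replicate 1 and replicate 2, in that order. All 8 genes of a fixed list of root tissue markers (PLT1, PLT2, SHR, SCR, WER, CASP1, PHO1 and SMB) were detected in every library, with summed levels of 551 to 990 CPM. A list of 17 photosynthesis genes that are no members, markers of green tissue, stood apart in 2 libraries. Its summed level was 1796 and 340.2 CPM in the treated quadruple mutant and 1104 and 268 CPM in treated Col-0, against 271 to 483 CPM in the other 12 libraries. Library codes also hold a letter, S or Z, and no label explains these letters. Treated quadruple, treated rhd6rsl1, untreated ein3eil1 and untreated Col-0 libraries carry Z and the other 4 groups carry S, so an effect of ethylene within 1 genotype cannot be told apart from a difference between the letters.

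Summed over the 103 members, levels stood at 1173 and 1147 CPM in the treated quadruple mutant and 838 and 896 CPM in the untreated quadruple mutant. The sums were 1004 and 979.6 CPM in treated ein3eil1 and 846 and 961 CPM in untreated ein3eil1. In treated rhd6rsl1 they were 11280 and 12747 CPM, against 1869 and 1631 CPM in untreated rhd6rsl1, and in treated Col-0 8757 and 8524 CPM, against 1392 and 1464 CPM in untreated Col-0. Thus the untreated sums of both lines without EIN3 and EIL1 lay below those of Col-0 and rhd6rsl1. The median member had a log2 fold change with ethylene of 3.31 in rhd6rsl1 and 2.85 in Col-0 by the rule's own libraries, and 0.46 in the quadruple mutant and 0.16 in ein3eil1. Per member, treated ein3eil1 held a median of 7.62% of the treated Col-0 level (0 to 23.2%), and 38 members were under 5%. The treated quadruple mutant held a median of 6.75% (0.193 to 159%), and 45 members were under 5%. The upper end was RBCS2B, which was high in replicate 1 alone, and the next member was AT3G22121 at 39.8%. Without replicate 1 the highest share was 41.5% and the median 6.22%.

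**Figure D1:**
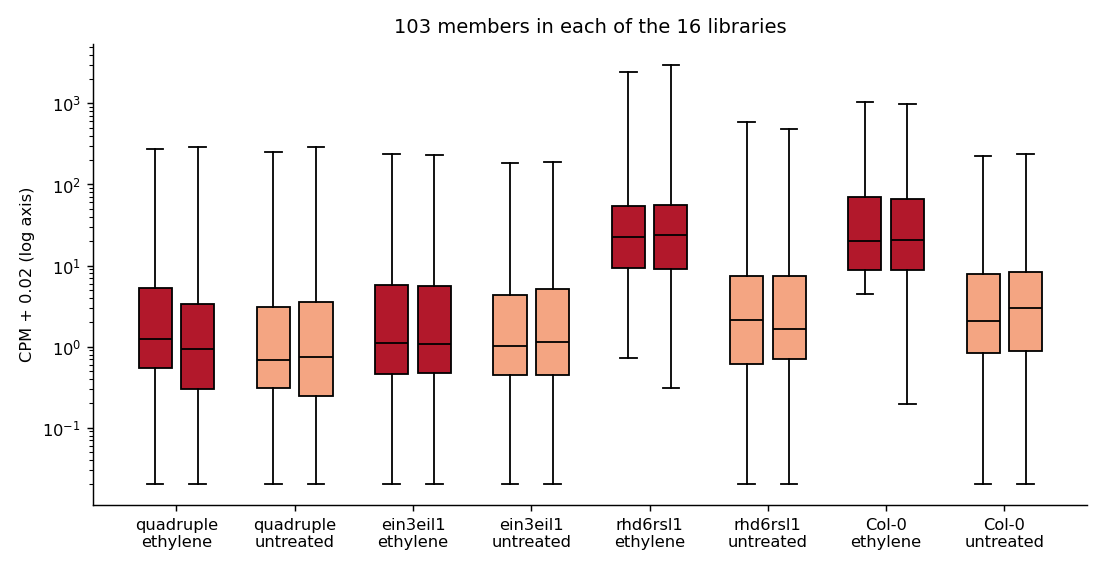
Levels of the 103 members in each of the 16 libraries, as CPM + 0.02 on a log axis, with boxes from the lower to the upper quartile, a line at the median and whiskers to the lowest and highest member; dark boxes are ethylene and light boxes untreated. Medians lie at 22.2 and 23.7 CPM in treated rhd6rsl1 and 19.9 and 20.7 CPM in treated Col-0, and at 0.656 to 3.001 CPM in the other 12 libraries.

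Ethylene perception, or feedback on it, is the role of 7 members: the receptors ETR2 (AT3G23150) and ERS2 (AT1G04310), RTE1 (AT2G26070), which promotes signalling by the receptor ETR1, the small membrane proteins ARGOS (AT3G59900), ARL (AT2G44080) and OSR1 (AT2G41230), which lower ethylene sensitivity and affect organ size, and EIL2 (AT5G21120), a relative of EIN3. In ein3eil1 without ethylene each of the 7 lay below Col-0 without overlap, meaning both libraries of one group below both of the other, as did 23.7% of all tested loci (28% lay above). ETR2 had 1.86 and 1.11 CPM in the treated quadruple mutant, 1.52 and 1.77 CPM in the untreated quadruple mutant, 1.48 and 1.04 CPM in treated ein3eil1 and 1.76 and 1.4 CPM in untreated ein3eil1. It had 113 and 120.0 CPM in treated rhd6rsl1, 25.3 and 25.4 CPM in untreated rhd6rsl1, 94.2 and 92.5 CPM in treated Col-0 and 18.8 and 19.4 CPM in untreated Col-0. The highest library without EIN3 and EIL1, treated or not, lay below the lowest untreated library with them, so most of the basal ETR2 transcript was absent as well.

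ERS2 had 4.19 and 4.91 CPM in treated ein3eil1 and 4.398 and 4.58 CPM in untreated ein3eil1, against 37.1 and 36.4 CPM in treated Col-0 and 8.104 and 8.49 CPM in untreated Col-0. RTE1 had 3.904 and 3.92 CPM in treated ein3eil1 and 3.46 and 3.51 CPM in untreated ein3eil1, against 30.8 and 36.2 CPM in treated Col-0 and 4.35 and 3.59 CPM in untreated Col-0. The basal loss differed among the 3: untreated ein3eil1 stood at 0.0827 times the untreated Col-0 mean for ETR2, 0.541 times for ERS2 and 0.878 times for RTE1.

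ARGOS had 1.105 and 0.702 CPM in the treated quadruple mutant and 0.421 and 0.459 CPM in the untreated quadruple mutant, and 0.364 and 0.564 CPM in treated ein3eil1 and 0.758 and 0.711 CPM in untreated ein3eil1. It had 118 and 126 CPM in treated rhd6rsl1 and 2.45 and 2.82 CPM in untreated rhd6rsl1, and 90.95 and 92.95 CPM in treated Col-0 and 2.87 and 3.001 CPM in untreated Col-0. Its ethylene levels in Col-0 were 31.3 times the untreated ones, the widest ratio of the 7. ARL had 1.25 and 0.902 CPM in treated ein3eil1 and 0.546 and 0.711 CPM in untreated ein3eil1, against 118 and 117 CPM in treated Col-0 and 5.16 and 5.596 CPM in untreated Col-0. OSR1 had 20.7 and 26.4 CPM in treated rhd6rsl1 and 0.587 and 0.359 CPM in untreated rhd6rsl1, against 9.18 and 11.99 CPM in treated Col-0 and 0.766 and 0.356 CPM in untreated Col-0. The treated OSR1 level in rhd6rsl1 was thus 2.22 times that in Col-0. EIL2 went the other way, with 0.841 and 1.26 CPM in treated rhd6rsl1 and 0.0489 and 0 CPM in untreated rhd6rsl1, against 7.09 and 6.42 CPM in treated Col-0 and 0.741 and 1.73 CPM in untreated Col-0.

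Ethylene synthesis accounts for 3 members, which include the ACC synthase ACS9 (AT3G49700), whose product ACC is the direct precursor, and the ACC oxidase gene ACO1 (AT2G19590), whose product turns ACC into ethylene. ACS9 had 0.208 and 0.0564 CPM in treated ein3eil1 and 0 and 0 CPM in untreated ein3eil1, and 12.4 and 11.2 CPM in treated rhd6rsl1 and 0.0489 and 0 CPM in untreated rhd6rsl1. It had 12.6 and 12.3 CPM in treated Col-0, against 0.0988 and 0.102 CPM in untreated Col-0, so every library without ethylene or without EIN3 and EIL1 held at most 0.208 CPM. ACO1 had 11.6 and 9.97 CPM in the treated quadruple mutant, 10.8 and 10.6 CPM in treated ein3eil1, 57.3 and 49.8 CPM in treated rhd6rsl1 and 50.8 and 56.03 CPM in treated Col-0. Untreated, ACO1 had 9.43 and 9.48 CPM in the quadruple mutant, 10.2 and 11.2 CPM in ein3eil1, 9.93 and 10.07 CPM in rhd6rsl1 and 7.58 and 8.27 CPM in Col-0. Its untreated libraries in the other 3 genotypes thus lay above those of Col-0, and the treated and untreated libraries of ein3eil1 overlapped.

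The 17 transcription factors among the members include 4 of the ERF family from the fixed lists, ERF1 (AT3G23240), ERF2 (AT5G47220), EBP (AT3G16770) and the repressor ERF11 (AT1G28370), besides RAP2.9 and ESE3 of the same superfamily. The others are the homeodomain proteins HB52 (AT5G53980), HB24 (AT2G18350) and WOX11, the NAC factor NAC6 (AT5G39610), known for its part in leaf senescence, MYB27 (AT3G53200), WRKY45 (AT3G01970), the bZIP protein EEL (AT2G41070), the bHLH proteins CIB1, HEC1 (AT5G67060) and AT5G43175, and the zinc finger protein ZFP2 (AT5G57520). In treated Col-0 they ranged from a mean of 7.12 CPM (ERF1) to 79.2 CPM (EBP), by read count and not per length. Their median in treated ein3eil1 was 3.78% of treated Col-0. Without ethylene 14 of the 17 lay below Col-0 in ein3eil1 with no overlap and 0 above, against 23.7% and 28% of all tested loci.

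ZFP2 was not detected without ethylene. It had 0 reads in all 8 untreated libraries and in both libraries of treated ein3eil1, 0.116 and 0 CPM in the treated quadruple mutant, 15.9 and 14.9 CPM in treated rhd6rsl1 and 12.02 and 17.4 CPM in treated Col-0. Against a floor of 3 reads over the untreated group, the treated level was at least 410-fold higher in rhd6rsl1 and at least 392-fold higher in Col-0. ERF1, an activator of ethylene and jasmonate response genes, had 0.0582 and 0 CPM in the treated quadruple mutant, 0.0521 and 0.0564 CPM in treated ein3eil1, 9.49 and 9.13 CPM in treated rhd6rsl1 and 8.37 and 5.87 CPM in treated Col-0. Untreated ERF1 had 0.342 and 0.205 CPM in rhd6rsl1 and 0.148 and 0.229 CPM in Col-0, so the treated libraries with the 2 factors stood apart from all others.

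HB52 had 0.312 and 0.338 CPM in treated ein3eil1 and 0.182 and 0.467 CPM in untreated ein3eil1, against 46.5 and 46.5 CPM in treated Col-0 and 2.03 and 3.03 CPM in untreated Col-0. EBP had 4.27 and 4.96 CPM in treated ein3eil1 and 5.399 and 6.09 CPM in untreated ein3eil1, against 84.2 and 74.3 CPM in treated Col-0 and 16.2 and 12.5 CPM in untreated Col-0. Both were thus below Col-0 without ethylene as well as with it. EEL kept its basal level, with 6.64 and 7.76 CPM in treated ein3eil1 and 9.62 and 6.4 CPM in untreated ein3eil1, against 29.1 and 42.2 CPM in treated Col-0 and 8.35 and 7.53 CPM in untreated Col-0, and its untreated ratio of ein3eil1 to Col-0 was 1.01. NAC6 and HB24 followed the F-box gene EBF2, which is no member, closely over the 16 libraries: Pearson's r of log2(CPM + 1) with EBF2 was 0.953 for NAC6, 0.956 for HB24 and 0.99 for ETR2, the 3 highest of the members. These correlations describe 16 libraries in 8 groups that share the treatment and genotype steps by which the members were chosen.

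Auxin and cytokinin response is represented by 9 members. They are the Aux/IAA repressors IAA1 (AT4G14560) and IAA5 (AT1G15580), the auxin glucosyltransferase IAGLU (AT4G15550), PBP1 (AT5G54490), a calcium-binding partner of the kinase PINOID, the SAUR-like AT5G20820 and AT1G17345, and the type-A response regulators ARR15, RR16 and RR17, which damp cytokinin signalling. IAGLU had 21.7 and 25.8 CPM in the treated quadruple mutant, 22.6 and 17.1 CPM in treated ein3eil1, 187 and 198 CPM in treated rhd6rsl1 and 149.8 and 138 CPM in treated Col-0. Untreated, IAGLU had 13.1 and 12.9 CPM in the quadruple mutant, 18.6 and 16.8 CPM in ein3eil1, 21.1 and 19.98 CPM in rhd6rsl1 and 28.02 and 28.5 CPM in Col-0. AT5G20820 had 0.521 and 1.04 CPM in treated ein3eil1 and 0.849 and 1.53 CPM in untreated ein3eil1, against 69.3 and 67.7 CPM in treated Col-0 and 5.19 and 5.44 CPM in untreated Col-0. It thus kept 1.14% of its treated Col-0 level, whereas IAA1 kept 22.1%, with 7.94 and 9.39 CPM in treated ein3eil1 and 6.13 and 5.67 CPM in untreated ein3eil1, against 36.7 and 41.9 CPM in treated Col-0 and 6.597 and 6.31 CPM in untreated Col-0. In this group 8 of 9 lay below Col-0 in untreated ein3eil1 without overlap and 1, ARR15, lay above. Of all tested loci 23.7% lay below and 28% above.

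The cell wall is built or modified by the products of 11 members. The xyloglucan endotransglucosylases XTH11 (AT3G48580), XTH12 (AT5G57530), XTH13 (AT5G57540) and XTH26 (AT4G28850) cut and rejoin xyloglucan, CSLC12 (AT4G07960) belongs to the xyloglucan glucan synthase family, EXPA12 (AT3G15370) is an expansin, and PRP1 (AT1G54970) and AT1G01453 are proline-rich and hydroxyproline-rich wall proteins. CWLP (AT3G22120), the pectin methylesterase AT2G47550 and the galactosidase BGAL7 (AT5G20710) complete the group. PRP1 had 7.33 and 0 CPM in the treated quadruple mutant, 0.0468 and 0 CPM in the untreated quadruple mutant, 49.3 and 42.5 CPM in treated ein3eil1 and 33.9 and 31.1 CPM in untreated ein3eil1. It had 44.3 and 36 CPM in treated rhd6rsl1, 0.0489 and 0.0512 CPM in untreated rhd6rsl1, 456 and 399.9 CPM in treated Col-0 and 88.03 and 108 CPM in untreated Col-0. PRP1 was thus nearly undetected in untreated libraries without RHD6 and RSL1, and with ethylene rhd6rsl1 held 0.0938 times the treated Col-0 level.

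XTH12 had 1.77 and 0.263 CPM in the treated quadruple mutant, 0.211 and 0 CPM in the untreated quadruple mutant, 39.9 and 36.8 CPM in treated ein3eil1 and 26.2 and 21.6 CPM in untreated ein3eil1. It had 9.14 and 9.08 CPM in treated rhd6rsl1, 0.171 and 0.256 CPM in untreated rhd6rsl1, 256 and 229.9 CPM in treated Col-0 and 48.2 and 60.1 CPM in untreated Col-0. XTH26 had 1.08 and 0.0585 CPM in the treated quadruple mutant, 4.27 and 3.44 CPM in treated ein3eil1, 0.812 and 0.285 CPM in treated rhd6rsl1 and 116 and 107 CPM in treated Col-0. Treated XTH26 in rhd6rsl1 was thus 0.00492 times treated Col-0, the lowest ratio of all members, and its untreated libraries without RHD6 and RSL1 had 0 reads. Its treated quadruple and treated rhd6rsl1 libraries overlapped, with means of 0.567 and 0.549 CPM. The rule set the limit on treated ein3eil1 against Col-0 alone, so it did not ask for a lower level in the quadruple mutant than in rhd6rsl1. No label says how reads shared by XTH12 and XTH13 were counted, so the split between these 2 is uncertain.

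EXPA12 had 2.56 and 2.28 CPM in the treated quadruple mutant, 0.702 and 0.734 CPM in the untreated quadruple mutant, 3.75 and 3.21 CPM in treated ein3eil1 and 1.304 and 1.24 CPM in untreated ein3eil1. It had 38.6 and 32.2 CPM in treated rhd6rsl1, 2.59 and 2.28 CPM in untreated rhd6rsl1, 38.6 and 33.05 CPM in treated Col-0 and 1.06 and 1.58 CPM in untreated Col-0. The treated EXPA12 libraries of rhd6rsl1 and Col-0 overlapped, with a ratio of 0.989, in contrast to XTH12 and XTH26. CWLP overlaps the antisense RNA gene AT3G22121, also a member, on the opposite strand. CWLP had 97.96 and 129.6 CPM in treated rhd6rsl1 and 82.6 and 54.8 CPM in treated Col-0, and AT3G22121 had 29.01 and 38.3 CPM in treated rhd6rsl1 and 18.8 and 10.6 CPM in treated Col-0. No label gives the strand setting of the counting, so reads of the 2 partners cannot be told apart. In all, 19 members overlap another locus, 15 of them on the opposite strand only, and their counts share this uncertainty.

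Peroxidases, glutathione transferases and defence-related proteins make up 13 members, among them GSTF2, the highest of all members in treated Col-0 by read count, not per length. AT4G16260, a putative beta-1,3-glucanase, had 272 and 287 CPM in the treated quadruple mutant, 167 and 199 CPM in the untreated quadruple mutant, 119 and 109.8 CPM in treated ein3eil1 and 90.5 and 119 CPM in untreated ein3eil1. It had 2426 and 2974 CPM in treated rhd6rsl1, 587 and 488 CPM in untreated rhd6rsl1, 752 and 864 CPM in treated Col-0 and 219 and 175 CPM in untreated Col-0. The treated rhd6rsl1 libraries lay 3.34-fold above treated Col-0 on their means, and the untreated ones lay above untreated Col-0 too.

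The phi-class glutathione transferase GSTF2 (AT4G02520) had 165 and 151 CPM in treated ein3eil1 and 142 and 177 CPM in untreated ein3eil1, against 1036 and 980.2 CPM in treated Col-0 and 189 and 199.6 CPM in untreated Col-0. The 2 groups of ein3eil1 overlapped, and its untreated level was 0.821 times that of Col-0. The peroxidase genes AT5G19890 and AT1G49570 were near 0 in ein3eil1 with or without ethylene. AT5G19890 had 0.338 and 0.226 CPM in treated ein3eil1 and 0.182 and 0.311 CPM in untreated ein3eil1, against 312 and 351 CPM in treated Col-0 and 3.33 and 5.44 CPM in untreated Col-0. AT1G49570 had 0.416 and 0.451 CPM in treated ein3eil1 and 0.121 and 0.355 CPM in untreated ein3eil1, against 268 and 306 CPM in treated Col-0 and 4.79 and 5.88 CPM in untreated Col-0. With ethylene their ein3eil1 means were 0.0851% and 0.151% of Col-0.

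The neighbouring lipid-transfer genes EARLI1 (AT4G12480) and AZI1 (AT4G12470), the second known for priming of systemic immunity, differed in what ein3eil1 kept of the basal level. EARLI1 had 28.2 and 38.5 CPM in treated ein3eil1 and 34.03 and 45.8 CPM in untreated ein3eil1, against 501 and 456 CPM in treated Col-0 and 100.3 and 103 CPM in untreated Col-0. AZI1 had 38.05 and 50.96 CPM in treated ein3eil1 and 54.6 and 73.9 CPM in untreated ein3eil1, against 399 and 321 CPM in treated Col-0 and 41.5 and 57.5 CPM in untreated Col-0. Untreated ein3eil1 was at 0.393 times Col-0 for EARLI1 and 1.298 times for AZI1. GSTU3 (AT2G29470) and GSTU4 (AT2G29460) are neighbouring tau-class glutathione transferase genes. GSTU3 had 5.82 and 5.49 CPM in treated Col-0, against 0.148 and 0.0254 CPM in untreated Col-0. GSTU4 had 18.3 and 15.9 CPM in treated Col-0, against 1.75 and 1.73 CPM in untreated Col-0. The other 5 of the group, the dirigent gene DIR5, the P450 gene CYP71A12, the lectin gene AT1G53060, AT1G33790 and AT4G33720, had mean levels of 6.49 to 55.5 CPM in treated Col-0. CYP71A12 had 10.2 and 2.83 CPM in treated Col-0, and it was not a member without replicate 1.

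Calcium binding and signalling hold 6 members. TCH3 (AT2G41100) and CAM8 (AT4G14640) are calmodulin-like proteins, AT5G02760 is a phosphatase of the PP2C family, IQD15 a calmodulin-binding scaffold protein and RTFL10 (AT3G14362) a small peptide gene, besides AT2G22880. TCH3, first known as touch-induced, had 23.9 and 23.1 CPM in the treated quadruple mutant, 25.7 and 30.4 CPM in treated ein3eil1, 198 and 192 CPM in treated rhd6rsl1 and 205 and 184 CPM in treated Col-0. Untreated, TCH3 had 22.9 and 23.8 CPM in the quadruple mutant, 36.4 and 46.6 CPM in ein3eil1, 44.3 and 38.1 CPM in rhd6rsl1 and 26.6 and 33.1 CPM in Col-0. It was 1 of the 6 members (5.83%, against 28% of all tested loci) whose untreated level in ein3eil1 lay above Col-0 without overlap. AT5G02760 had 3.17 and 0.76 CPM in the treated quadruple mutant, 0.625 and 0.508 CPM in treated ein3eil1, 22.2 and 21.7 CPM in treated rhd6rsl1 and 28.6 and 20.7 CPM in treated Col-0, against 0.889 and 0.56 CPM in untreated Col-0. Replicate 1 of the treated quadruple mutant stood above the other libraries without EIN3 and EIL1.

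The 21 members of metabolism and transport ranged from 5.01 to 317 CPM in treated Col-0, by read count. The acyltransferase-family gene AT2G39980 had 10.4 and 5.55 CPM in the treated quadruple mutant, 1.66 and 2.18 CPM in the untreated quadruple mutant, 5.7 and 8.26 CPM in treated ein3eil1 and 2.79 and 1.91 CPM in untreated ein3eil1. It had 447 and 483 CPM in treated rhd6rsl1, 6.63 and 5.38 CPM in untreated rhd6rsl1, 329.7 and 303 CPM in treated Col-0 and 10.4 and 14.1 CPM in untreated Col-0. Its treated libraries lay above its untreated ones in all 4 genotypes. FDH (AT5G14780), formate dehydrogenase, had 29.9 and 22.2 CPM in treated ein3eil1 and 19.2 and 20.9 CPM in untreated ein3eil1, against 188 and 157 CPM in treated Col-0 and 36.1 and 30.6 CPM in untreated Col-0. The carbonic anhydrase BCA3 (AT1G23730) had 0.0521 and 0.0564 CPM in treated ein3eil1 and 0.212 and 0.178 CPM in untreated ein3eil1, against 55.98 and 40.1 CPM in treated Col-0 and 0.568 and 0.254 CPM in untreated Col-0. These 2 thus lie far apart in what ein3eil1 kept of the treated Col-0 level, 15.1% for FDH and 0.113% for BCA3.

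CYP718 (AT2G42850), a cytochrome P450 gene, had 10.6 and 9.08 CPM in treated ein3eil1 and 7.67 and 7.09 CPM in untreated ein3eil1, against 109 and 105 CPM in treated Col-0 and 17.1 and 18.9 CPM in untreated Col-0. DXPS1 (AT3G21500), of the plastid isoprenoid pathway family, had 7.6 and 4.45 CPM in treated rhd6rsl1 and 0.293 and 0.615 CPM in untreated rhd6rsl1, against 14.1 and 11.3 CPM in treated Col-0 and 0.321 and 1.02 CPM in untreated Col-0. STS (AT4G01970), stachyose synthase, had 17.03 and 21.9 CPM in treated rhd6rsl1 and 2.103 and 1.64 CPM in untreated rhd6rsl1, against 5.397 and 7.41 CPM in treated Col-0 and 0.84 and 1.17 CPM in untreated Col-0. DXPS1 was thus lower and STS higher in treated rhd6rsl1, both without overlap. The other members of the group are the 2-oxoglutarate oxygenase gene AT5G59540, the glucosyltransferase UGT76D1, the sulfate transporter AST91, the purple acid phosphatase PAP24, the xanthine dehydrogenase XDH2, the terpene synthase TPS13, the lipase-like AT5G45950, AT3G11210, AT1G76470, AT5G17780, AT2G23060, AT5G26220, AT2G30660 and AT5G52050. Over the 21 members, untreated ein3eil1 lay below Col-0 without overlap for 12 and above for 1, against 23.7% and 28% of all tested loci.

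RBCS2B (AT5G38420), a Rubisco small subunit gene, is on the photosynthesis list and is a member through replicate 1 of treated Col-0. It had 16.3 and 0.234 CPM in the treated quadruple mutant, 0.696 and 0.685 CPM in treated rhd6rsl1 and 10.2 and 0.177 CPM in treated Col-0, against 0.519 and 1.02 CPM in untreated Col-0. Replicate 2 of treated Col-0 thus lay below both untreated libraries, and the 2 high values are those of the 2 libraries in which the other 17 photosynthesis genes were high. Without both of these libraries the rule gave 99 loci, of which 98 were among the 103.

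Other or unknown functions cover 16 members, with treated Col-0 means of 5.72 to 130 CPM. AT5G40590, a C1 domain protein, had 2.08 and 1.75 CPM in treated ein3eil1 and 3.64 and 3.58 CPM in untreated ein3eil1, against 128 and 132 CPM in treated Col-0 and 5.31 and 13.4 CPM in untreated Col-0. AT5G62280 had 12.3 and 12.9 CPM in treated ein3eil1 and 10.6 and 10.8 CPM in untreated ein3eil1, against 76.5 and 80.2 CPM in treated Col-0 and 15.1 and 13.1 CPM in untreated Col-0. AT5G40590 kept 1.47% of the treated Col-0 level in treated ein3eil1, and AT5G62280 kept 16.03%. The other 14 are AT3G22121, AT1G60010, AT1G19530, AT3G55720, AT4G38410, the RNA gene AT1G11185, AT3G51410, AT2G28690, AT5G48175, AT2G43470, AT5G57123, GEX1, AT4G35210 and AT2G40390. Untreated ein3eil1 lay below Col-0 without overlap for 11 of the 16 and above for 0, against 23.7% and 28% of all tested loci.

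**Figure D2:**
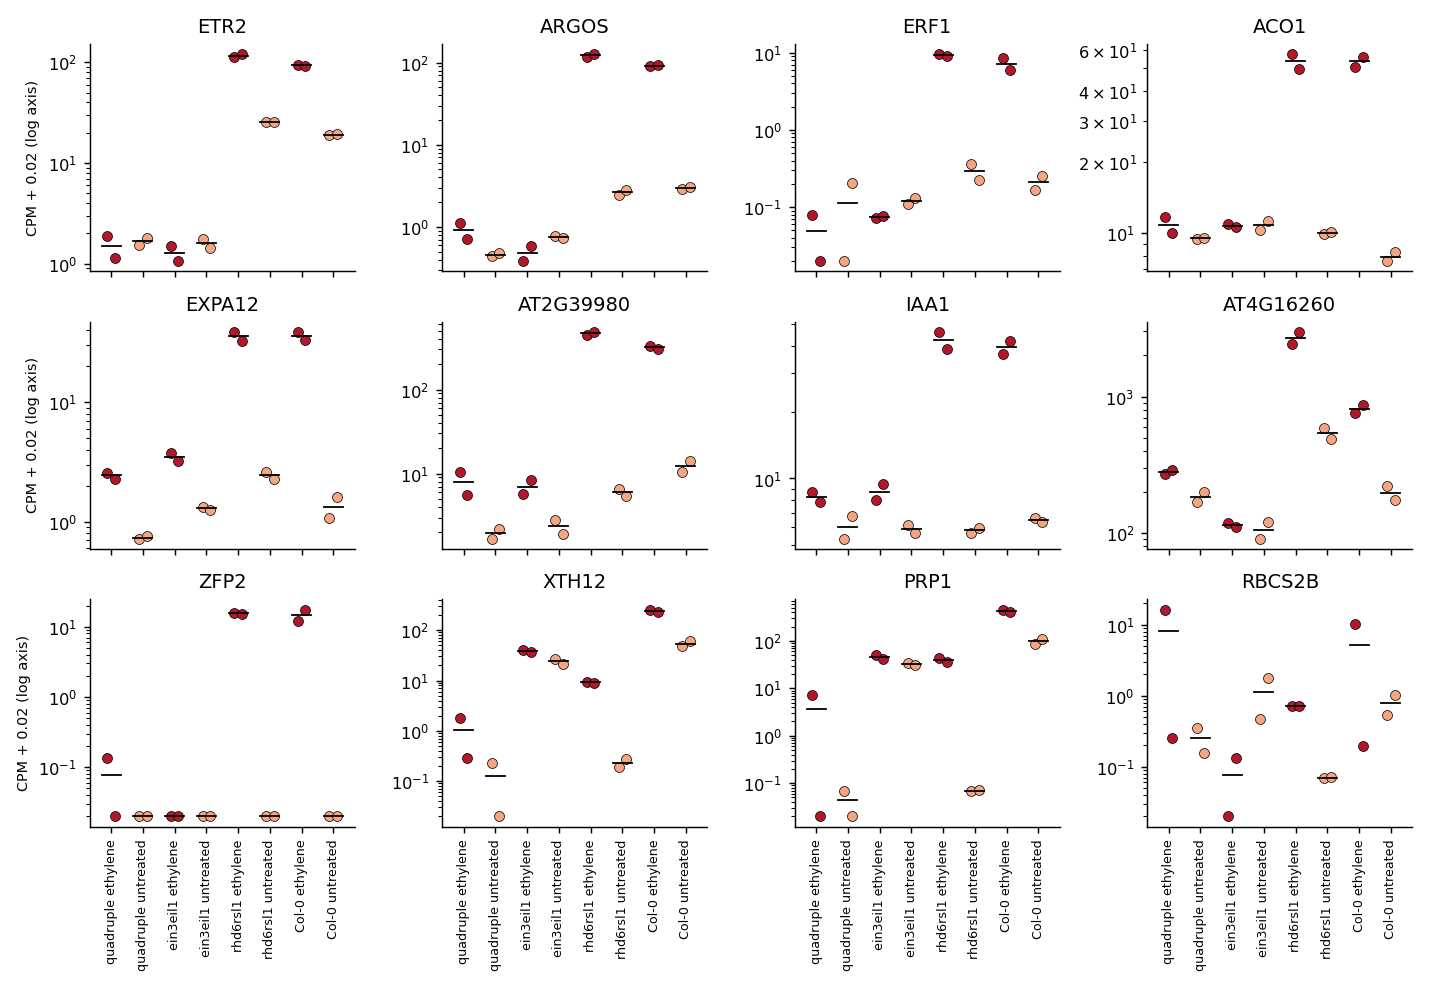
Levels of 12 members in all 16 libraries, as CPM + 0.02 on log axes that differ between panels; points are libraries, short lines are group means, dark points are ethylene and light points untreated, and quadruple stands for ein3eil1rhd6rsl1. ETR2, ARGOS and ERF1 are low in all 8 libraries without EIN3 and EIL1, ACO1 keeps its basal level there, and RBCS2B is high in 2 single libraries.

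The rule asked for induction in rhd6rsl1 but not for equal levels, so the treated level in rhd6rsl1 set against Col-0 shows where the 2 lines differ. In treated roots 80 of the 103 members had 50 to 200% of the Col-0 mean in rhd6rsl1. The 9 members with at most 25% were XTH26, XTH13, XTH12, AT1G01453, PRP1, AT5G43175, RBCS2B, EIL2 and CSLC12, at 0.492 to 18.9%. RBCS2B is among them through replicate 1 of treated Col-0 alone, and its treated rhd6rsl1 libraries lay above replicate 2 of treated Col-0. RR17, CYP71A12, DXPS1 and PBP1 lay between 25 and 50%. RAP2.9, AT5G19890, OSR1, AT3G22121, STS, AT5G45950, AT4G16260 and BGAL7 had 200 to 400%, and DIR5 and AT4G33720 had over 400%. Libraries of treated rhd6rsl1 lay above those of treated Col-0 without overlap for 49 members (47.6%, against 33.1% of all tested loci) and below for 24 (23.3%, against 29.4%). Without ethylene rhd6rsl1 lay above Col-0 for 30 members (29.1%, against 32.4%) and below for 35 (34%, against 28.2%). All 4 groups entered the rule, and treated rhd6rsl1 and treated Col-0 carry different code letters, so a genotype difference cannot be told apart from a difference between letters.

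AT4G33720, a protein of the CAP superfamily that holds PR-1, had the widest excess, with 135 and 194 CPM in treated rhd6rsl1 and 36.3 and 17.9 CPM in untreated rhd6rsl1, against 6.59 and 18.7 CPM in treated Col-0 and 1.16 and 0.712 CPM in untreated Col-0. It was at most 0.413 CPM in the 8 libraries without EIN3 and EIL1, far below its level in rhd6rsl1. DIR5 had 31.5 and 38.97 CPM in treated rhd6rsl1 and 0.905 and 0.82 CPM in untreated rhd6rsl1, against 4.67 and 9.91 CPM in treated Col-0 and 0.395 and 0.61 CPM in untreated Col-0. Both comparisons were without overlap, and the excess was wider in the treated libraries. AT5G43175, a bHLH protein, had 1.04 and 0.913 CPM in treated rhd6rsl1 and 0 reads in untreated rhd6rsl1, against 9.29 and 11 CPM in treated Col-0 and 0.346 and 0.153 CPM in untreated Col-0. It had 0.0582 and 0 CPM in the treated and 0 reads in the untreated quadruple mutant, and 0.469 and 0.113 CPM in treated and 0 and 0.0889 CPM in untreated ein3eil1.

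**Figure D3:**
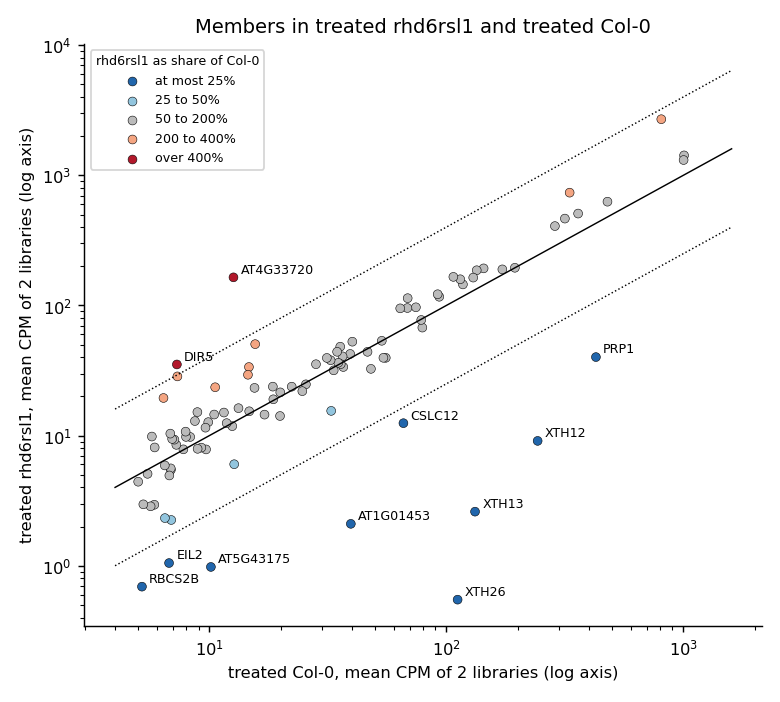
Mean CPM of each member in treated rhd6rsl1 against treated Col-0, on log axes, with a solid line at equality and dotted lines at 4-fold either way; colours give the share of the Col-0 level. The 9 members at or under 25% lie below the lower dotted line, RBCS2B through replicate 1 of treated Col-0 alone, and DIR5 and AT4G33720 lie above the upper one.

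The levels of the 9 members low in treated rhd6rsl1 can be set beside those of root hair cell markers. Their summed level was 28.5 and 1.14 CPM in the treated quadruple mutant and 1.26 and 0.62 CPM in the untreated quadruple mutant, and 127 and 112 CPM in treated ein3eil1 and 81.4 and 73.7 CPM in untreated ein3eil1. It was 73.9 and 65.5 CPM in treated rhd6rsl1 and 0.807 and 1.18 CPM in untreated rhd6rsl1, and 1101 and 983 CPM in treated Col-0 and 186 and 233 CPM in untreated Col-0. RBCS2B, a photosynthesis gene, made 16.3 of the 28.5 CPM in replicate 1 of the treated quadruple mutant, and the other 8 summed to 12.3 CPM there. A list of 13 other root hair genes, among them EXPA7, EXPA18, COW1 and PRP3, summed to 49.9 to 64.9 CPM in the treated and 31.9 to 42.0 CPM in the untreated quadruple mutant, and to 906 to 1028 CPM in treated and 809 to 834 CPM in untreated ein3eil1. The same list summed to 217 to 223 CPM in treated and 47.3 to 50.4 CPM in untreated rhd6rsl1, and to 2075 to 2266 CPM in treated and 1299 to 1426 CPM in untreated Col-0. All 13 were detected in Col-0 and ein3eil1, and up to 4 had 0 reads in a library without RHD6 and RSL1. In the quadruple mutant and in untreated rhd6rsl1 the sum rested largely on RHD2, an NADPH oxidase gene, and the 12 others summed to 22.7 and 3.33 CPM in the treated and 3.98 and 3.08 CPM in the untreated quadruple mutant, and to 186 and 179 CPM in treated and 4.01 and 3.71 CPM in untreated rhd6rsl1. The marker sum was lower in treated rhd6rsl1 than in treated ein3eil1, as were 5 of the 9 members, whereas EIL2, AT5G43175, RBCS2B and CSLC12 had the higher mean in treated rhd6rsl1. In whole roots, fewer cells of a type and less RNA per cell cannot be told apart, and the part of hair cell number in the levels of these 9 members was not tested.

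Without ethylene the members already differed between genotypes, which the rule did not ask for. Untreated ein3eil1 libraries lay below untreated Col-0 without overlap for 75 members (72.8%, against 23.7% of all tested loci) and above for 6 (5.83%, against 28%). Untreated quadruple libraries lay below untreated rhd6rsl1 for 71 members (68.9%, against 24.2%) and above for 3 (2.91%, against 22%). The median log2 fold change of the members was -0.91 for ein3eil1 against Col-0 and -0.87 for the quadruple mutant against rhd6rsl1, with medians over all tested loci of -0.01 and 0.01. No test is given, since untreated Col-0 and rhd6rsl1 entered the rule. Each of these comparisons lies within 1 code letter.

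The size of the basal loss varied widely. Of 102 members with reads in untreated Col-0, 23 had at most 0.25 times the Col-0 mean in untreated ein3eil1, 47 had at most 0.5 times and 16 were above Col-0, with a median of 0.532. The receptor ETR2 (0.0827), ARL (0.117), AT5G19890 (0.0562), AT1G49570 (0.0447) and XTH26 (0.0427) were among the lowest, as ratios of untreated ein3eil1 to untreated Col-0. GSTF2 (0.821), RTE1 (0.878) and IAA1 (0.914) were closer to Col-0. TCH3 (1.39), ACO1 (1.36) and DIR5 (2.23) were higher in untreated ein3eil1. Of 100 members with reads in untreated rhd6rsl1, the quadruple mutant had at most 0.25 times for 17 and at most 0.5 times for 48, with a median of 0.533.

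**Figure D4:**
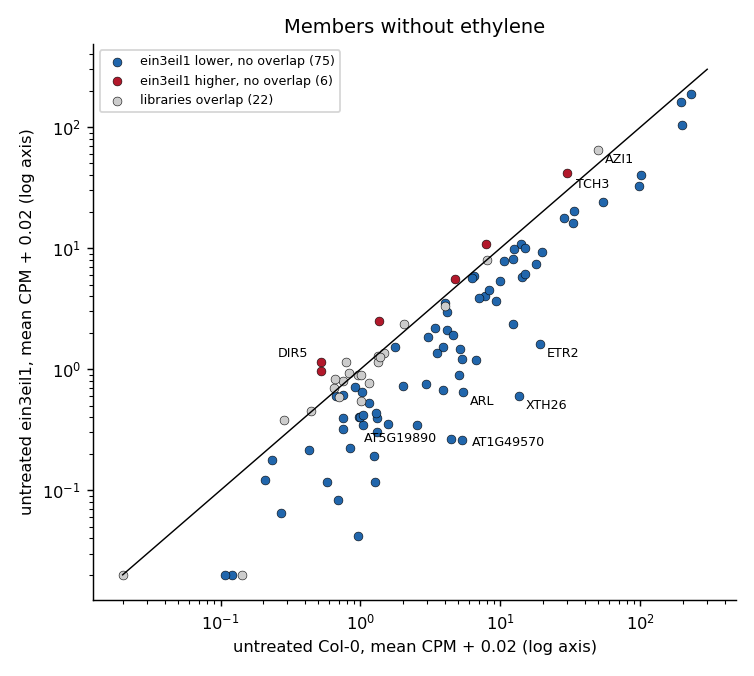
Mean CPM + 0.02 of each member in untreated ein3eil1 against untreated Col-0, on log axes with a line at equality. Blue points (75) have both ein3eil1 libraries below both Col-0 libraries, red points (6) above, and grey points (22) overlap.

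The first tested comparison asks what ethylene did to the members where EIN3, EIL1, RHD6 and RSL1 were all mutated. Transcripts of EIN3, EIL1 and RHD6 themselves rose with ethylene in the quadruple mutant, by 0.33, 0.33 and 0.32 on the log2 scale. Their adjusted p in edgeR was 0.024, 0.032 and 0.036, and RSL1 was not called. In the quadruple mutant 26 of the 103 members rose with ethylene (25.2%, against 11.5% of all tested loci) and 2 fell (1.94%, against 12.4%), in edgeR's quasi-likelihood test at an adjusted p below 0.05. The median log2 fold change was 0.46 for the members and 0.02 for all loci. Rises were called for 8 of the 11 cell wall members, 3 of 9 auxin and cytokinin members, 3 of 13 in the peroxidase and defence group, 5 of 21 in metabolism and transport, 5 of 16 of other function and 2 of 7 in perception and feedback, and 0 of 17 transcription factors, 0 of 6 calcium and signalling members and 0 of 3 synthesis genes passed the test. Without replicate 1 of the treated quadruple mutant, the library high in photosynthesis transcripts, rises were called for 2 of the 11 cell wall members, 1 of 9 auxin and cytokinin members, 3 of 13 in the peroxidase and defence group, 2 of 21 in metabolism and transport, 3 of 16 of other function and 0 of 7 in perception and feedback. A fit of only the 2 groups compared called 12 members, all of them rises, 3 of these in the cell wall group. At an unadjusted p below 0.05 there were 42 members. The share of all tested loci for the fit without replicate 1 is given below. None is given for the counts of 12 and 42, nor for counts of calls from other alternative fits below. Those counts cannot be set against all loci and show only how the calls of members vary with the fit. All contrasts of treated with untreated quadruple libraries also set Z against S.

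The 7 rises that held without any 1 of the 4 libraries were those of AT2G39980, EXPA12, EARLI1, IAGLU, GSTF2, UGT76D1 and AT3G55720. The fold change was 2.03 ± 0.28 on the log2 scale for AT2G39980 (edgeR, adjusted p = 0.00014), 1.73 ± 0.22 for EXPA12 (adjusted p = 8.6e-05) and 1.12 ± 0.18 for EARLI1 (adjusted p = 0.00042), with the standard error after the sign ±. EARLI1 had 42.6 and 37.97 CPM in the treated quadruple mutant and 20.2 and 16.5 CPM in the untreated quadruple mutant. The log2 fold change was 0.85 ± 0.12 for IAGLU (adjusted p = 0.00021), 0.69 ± 0.11 for GSTF2 (adjusted p = 0.00045), 0.58 ± 0.13 for the glucosyltransferase UGT76D1 (adjusted p = 0.0042) and 0.52 ± 0.11 for AT3G55720 (adjusted p = 0.0024). These treated levels stayed far below those of treated Col-0, at 2.52% for AT2G39980, 6.75% for EXPA12 and 18.7% for GSTF2.

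The other 19 rises and both falls lost the call without at least 1 library. Without replicate 1 of the treated quadruple mutant 11 members rose (10.7%, against 6.19% of all tested loci) and 1 fell (against 8.03%), and without replicate 2 of the untreated quadruple mutant 14 were called. XTH26 (at least 16.3-fold over 3 reads, adjusted p = 0.0087), PRP1 (7.10 ± 1.6, adjusted p = 0.0043), RBCS2B (5.11 ± 1.5, adjusted p = 0.02), XTH12 (3.23 ± 0.81, adjusted p = 0.0084), XTH11 (3.15 ± 0.84, adjusted p = 0.012) and XTH13 (3.08 ± 1, adjusted p = 0.039) had the 6 widest fold changes in edgeR among the called members. PRP1 rests on 252 reads in the treated and 2 in the untreated quadruple mutant, a ratio of 158.5 with a 95% counting interval of 43.4 to 1316 (exact, Clopper-Pearson). All 252 reads came from replicate 1 and mates may be counted singly, so this interval leaves out the spread between libraries and may be too narrow even for counting error. Without replicate 1 the log2 fold changes were -3.04 for PRP1, -0.01 for RBCS2B, 1.29 for XTH12, -0.14 for XTH11 and 0.30 for XTH13, and none of the 6 was called. XTH26 had 2 reads in replicate 2 and 0 in the untreated quadruple mutant, both under the floor of 3 reads, and its fitted value of 4.25 (adjusted p = 0.23) depends on the prior count. Replicate 1 held 0.515 to 1.72% of the treated Col-0 level for 8 of the 9 members low in rhd6rsl1 and 313% for RBCS2B, and replicate 2 held 0 to 0.798% for the 8 and 4.5% for RBCS2B, less than replicate 1 for all 9. This is the library in which the photosynthesis list was high, and 7 of the 13 other root hair genes were called higher in the same contrast; the part of either in the rises was not tested.

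Of the pathway members, ARGOS rose by 1.01 ± 0.26 (adjusted p = 0.01) and OSR1 by 1.99 ± 0.46 (adjusted p = 0.005), and neither call held without replicate 1 of the treated quadruple mutant, at 0.65 and 1.62 (adjusted p = 0.25 and 0.068). OSR1 had 0.931 and 0.585 CPM in the treated quadruple mutant and 0.187 and 0.184 CPM in the untreated quadruple mutant, so the groups did not overlap. ERS2 fell by 0.43 ± 0.14 on the log2 scale (adjusted p = 0.036), with 3.69 and 3.27 CPM in the treated and 4.78 and 4.47 CPM in the untreated quadruple mutant, and AT1G76470 by 0.88 ± 0.27 (adjusted p = 0.026). ERS2 lost its call without each of the 4 libraries in turn (adjusted p of 0.066 to 0.2), and AT1G76470 without 3 of them. ETR2 (-0.16 ± 0.21, adjusted p = 0.62), ARL (0.49 ± 0.31, adjusted p = 0.27), ACO1 (0.17 ± 0.11, adjusted p = 0.26) and ERF1 (-1.58 ± 1.2, adjusted p = 0.37) were not called.

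**Figure D5:**
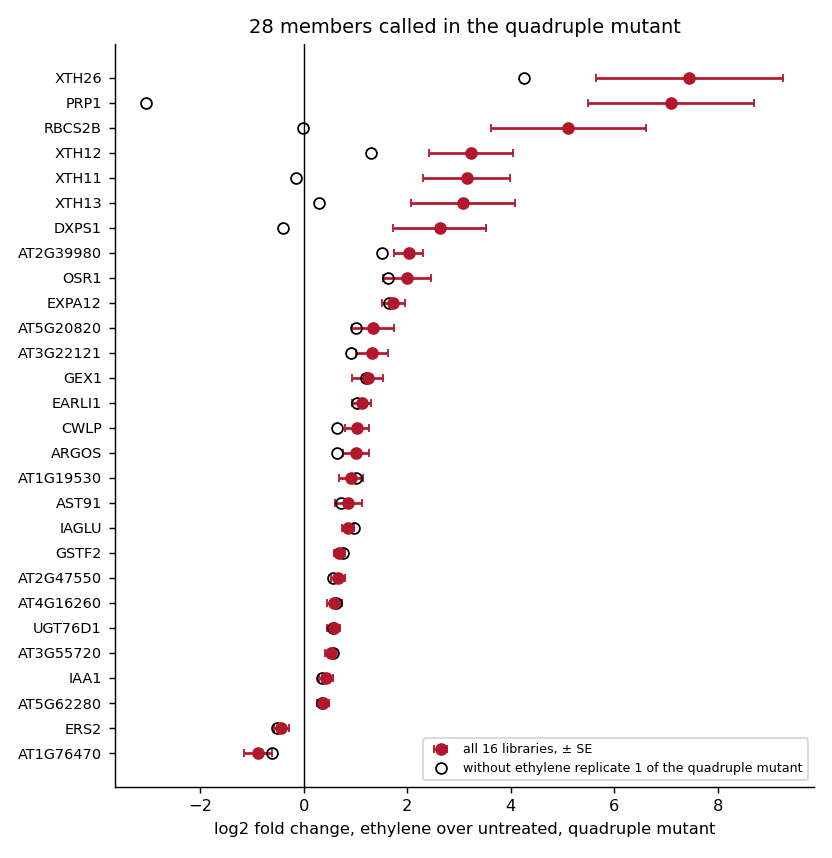
Log2 fold change of ethylene over untreated in the quadruple mutant for the 28 members called in edgeR; red points with bars are estimates ± SE from all 16 libraries, and open circles are estimates without replicate 1 of the treated quadruple mutant. PRP1 moves from 7.10 to -3.04 and RBCS2B from 5.11 to -0.01 without it, whereas EXPA12 stays at 1.64 against 1.73.

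Values with ethylene in ein3eil1, which shares no library with the quadruple mutant, can be set beside these. In both lines the treated libraries lay above the untreated ones without overlap for 19 members (18.4%, against 5.5% of all tested loci), of which 11 were called in the quadruple mutant. They include AT2G39980, EXPA12, UGT76D1 and AT3G55720 of the 7 rises that held without each library, besides OSR1, IAA1, AT2G47550, AT5G62280, XTH12, XTH13 and XTH26. EARLI1, GSTF2 and IAGLU, whose rises also held without each library, are not among the 19. Their log2 fold changes with ethylene in ein3eil1 were -0.25, -0.00 and 0.19. EXPA12 averaged 2.42 CPM in the treated and 0.718 CPM in the untreated quadruple mutant, and 3.48 CPM in treated and 1.27 CPM in untreated ein3eil1. AT2G39980 averaged 7.98 CPM in the treated and 1.92 CPM in the untreated quadruple mutant, and 6.98 CPM in treated and 2.35 CPM in untreated ein3eil1. Treated ein3eil1 entered the rule through a ceiling, and treated and untreated libraries carry opposite letters in the 2 lines, Z and S in the quadruple mutant and S and Z in ein3eil1. Counted over each line alone, 44 members were higher without overlap in the treated quadruple mutant (42.7%, against 31.1%) and 40 in treated ein3eil1 (38.8%, against 24%), and 10 (9.71%, against 27.1%) and 16 (15.5%, against 25.7%) were lower.

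The second tested comparison set the untreated quadruple mutant against untreated ein3eil1. It asks how basal levels of the members differ when RHD6 and RSL1 are mutated besides EIN3 and EIL1. EIL1 itself averaged 22.7 CPM in the untreated quadruple mutant, against 13.2 CPM in untreated ein3eil1. In the quadruple mutant 17 members were lower (16.5%, against 5.8% of all tested loci) and 5 higher (4.85%, against 6.63%), with a median log2 fold change of -0.11, against 0.00 for all loci. Among the lowest were PRP1 at -10.24 ± 1.1 on the log2 scale (edgeR, adjusted p = 5.1e-06), XTH12 at -7.77 ± 0.47 (adjusted p = 2.1e-09), XTH13 at -7.52 ± 0.53 (adjusted p = 1.6e-08), AT1G01453 at -6.64 ± 0.5 (adjusted p = 3.4e-08) and CSLC12 at -3.57 ± 0.23 (adjusted p = 3.6e-09). AT1G01453 had 0.0234 and 0.0459 CPM in the untreated quadruple mutant, against 3.55 and 4.13 CPM in untreated ein3eil1, and CSLC12 had 0.609 and 0.39 CPM in the untreated quadruple mutant, against 6.52 and 5.67 CPM in untreated ein3eil1. PRP1 and AT1G01453 had 2 and 3 reads in the untreated quadruple mutant and were 1392-fold (95% counting interval 385 to 11503) and 112-fold (37.9 to 545) higher in untreated ein3eil1 by summed reads, with intervals that leave out the spread between libraries. All 5 are among the 9 members low in treated rhd6rsl1, which shares no library with this contrast. XTH26 and EIL2, both at 0 reads in the untreated quadruple mutant, were at least 16.6-fold and at least 4.94-fold higher in untreated ein3eil1, against 3 reads over the group. All 13 other root hair genes were called lower in the same contrast, with a median of -8.90, and their part in the falls was not tested.

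Falls were also called outside the wall genes. RR17 fell by 3.03 ± 0.63 (adjusted p = 0.0038), EARLI1 by 1.10 ± 0.18 (adjusted p = 0.00046) and TCH3 by 0.80 ± 0.12 (adjusted p = 0.00025), all without loss of the call when any 1 library was left out. Among those higher in the quadruple mutant were MYB27 (1.28 ± 0.26, adjusted p = 0.0033), CYP718 (1.00 ± 0.12, adjusted p = 1.5e-05), AT4G16260 (0.83 ± 0.15, adjusted p = 0.0011) and AT1G60010 (0.59 ± 0.12, adjusted p = 0.0028). MYB27 had 1.92 and 1.19 CPM in the untreated quadruple mutant, against 0.607 and 0.689 CPM in untreated ein3eil1, and the P450 gene CYP718 had 14.3 and 14.5 CPM in the untreated quadruple mutant, against 7.67 and 7.09 CPM in untreated ein3eil1. Of the 22 calls, 12 held without each library in turn, 13 calls remained without replicate 2 of untreated ein3eil1, and those of AT1G60010, AT5G20820, AZI1, EIL2, EXPA12, GSTF2, IAGLU, UGT76D1, WRKY45 and XTH26 were lost at least once. The untreated quadruple mutant carries S and untreated ein3eil1 carries Z.

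The third tested comparison, the treated quadruple mutant against untreated ein3eil1, lies within letter Z and joins the effect of ethylene with that of RHD6 and RSL1. In it 24 members were higher (23.3%, against 13.3% of all tested loci) and 14 lower (13.6%, against 13.8%), with a median of 0.15, against 0.01. HEC1, a bHLH factor known from carpel development, had 0.873 and 1.403 CPM in the treated quadruple mutant, against 0.182 and 0.222 CPM in untreated ein3eil1 (2.47 ± 0.47, adjusted p = 0.001). OSR1 (2.86 ± 0.53, adjusted p = 0.00083), AT2G39980 (1.80 ± 0.28, adjusted p = 0.00016), AT4G16260 (1.43 ± 0.15, adjusted p = 3.4e-06) and EXPA12 (0.94 ± 0.2, adjusted p = 0.0027) were also higher, and these 5 were among the 9 rises that held without each library in turn. AT1G60010, AT3G22121 and CYP718 were among the rest.

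Among the falls of that comparison AT1G01453 (-5.18 ± 0.44, adjusted p = 1.9e-07), XTH12 (-4.53 ± 0.34, adjusted p = 4.2e-08), XTH13 (-4.43 ± 0.38, adjusted p = 2.6e-07), PRP1 (-3.14 ± 0.56, adjusted p = 0.00055) and CSLC12 (-3.04 ± 0.22, adjusted p = 2.8e-08) were the 5 widest, and they held, with TCH3, GSTU4 and AT1G76470, without each library in turn. Counts of calls fell to 23 without replicate 1 and to 25 without replicate 2 of untreated ein3eil1. DXPS1 (3.48 ± 1, adjusted p = 0.02), AT5G45950 (adjusted p = 0.02) and AT5G02760 (2.36 ± 0.56, adjusted p = 0.0052) were called too, but lost the call without replicate 1 of the treated quadruple mutant, with adjusted p of 0.86, 0.3 and 0.24. AT5G45950 had 0 reads in untreated ein3eil1 and 0.902 and 0.0877 CPM in the treated quadruple mutant, at least 12.9-fold more than 3 reads over the group. In the same contrast all 13 other root hair genes were called lower (median -5.63) and 9 of 17 photosynthesis genes higher (median 1.36), whose part was not tested.

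Genes of the same pathways that are no members were read from 4 fixed lists, to show how far the members stand for their pathway. In Col-0, where 13.7% of all tested loci rose and 15.9% fell (29.6% in all), 7 of 13 other signalling and feedback genes rose and 0 fell (median 0.32), 5 of 6 other ethylene-responsive transcription factors rose (median 1.44), 3 of 9 other synthesis genes rose and 1 fell (median 0.30), and 9 of 12 other auxin response genes rose and 2 fell (median 1.36). EBF2, which marks EIN3 for destruction, rose by 1.79 on the log2 scale (edgeR, adjusted p = 4e-10), to 363 ± 15.2 CPM in treated Col-0, against 102 ± 2.74 CPM in untreated Col-0 (SD, n = 2). ORA59 rose by 3.46 (adjusted p = 2.5e-08) and EDF3 by 2.23 (adjusted p = 9.6e-09), whereas the ACC synthase gene ACS5 fell by 3.56 (adjusted p = 8.1e-09), to 0.678 ± 0.329 CPM in treated Col-0, against 7.88 ± 0.352 CPM in untreated Col-0. The 4-fold limit kept EBF2 out of the members. The rule read these same libraries and took the widest responses off each list, so the counts and medians describe the genes it left and are no independent test of the pathways.

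In the quadruple mutant 11.5% of all tested loci rose and 12.4% fell (23.9% in all), and calls among the same non-members differed by list. There were 1 rise and 3 falls among 13 signalling genes and 0 and 2 among 6 transcription factors. The 9 synthesis genes gave 0 and 1, and the 12 auxin response genes 4 and 0. EBF2 fell by 0.84 (adjusted p = 8.3e-05), EBF1 by 0.35 (adjusted p = 0.005) and the receptor gene EIN4 by 0.26 (adjusted p = 0.026), and EIN5 rose by 0.48 (adjusted p = 0.0047). Among the auxin genes IAA2 rose by 0.36 (adjusted p = 0.015), GH3.5 by 0.46 (adjusted p = 0.0068), LBD18 by 0.90 (adjusted p = 0.0037) and LBD29 by 0.86 (adjusted p = 0.0051). The lists were chosen with results of these data known, and 4 of 10 listed transcription factors, 7 of 20 signalling genes, 3 of 14 synthesis genes and 2 of 14 auxin genes are members.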

How the data were processed

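Reads were aligned by the authors with BWA 0.7.7 to TAIR10, per the submitters' processing notes, from 100-bp paired-end TruSeq mRNA libraries. Per the file headers, the deposited files give a read count, a length and an RPKM value for each of 39640 transcript models. The authors' RPKM values were not used. Counts were summed to 33518 loci, of which 32709 matched RefSeq's TAIR10.1 annotation by locus tag. No label names the counter or its handling of strand, shared reads or mates. Since each of the 16 totals was even, mates may be counted singly.

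For tests, filterByExpr kept 22304 loci, all 103 members among them. edgeR 4.0.16 fitted 8 group means with TMM scaling (factors 0.977 to 1.046), with Benjamini-Hochberg adjustment across all tested loci and calls below 0.05. All p-values of genes come from edgeR. Standard errors were obtained as log2 fold change divided by the root of the F statistic. CPM values are per column total, without TMM. Floors are 3 reads over a group and cover counting error only.

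The members and lists were chosen with earlier results of these data known, and role groups were set by hand afterwards. Named genes (67) are those on the lists, the highest, the widest changes, the most retained, neighbours, the leading members of each role and those closest to EBF2, except 1 member that is not reported here by name; others were named after their values were seen. Alternatives were no filter, DESeq2 1.42.0, its size factors, fits of only 2 groups, a replicate block, other limits of the rule and omission of each library, and, added after the data were seen, halved counts, omission of the libraries high in photosynthesis genes and of RBCS2B. The fits were tested on simulated data. R 4.3.3, Python 3.11.15, pandas 2.3.3 and matplotlib 3.10.9 were used.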

Additional observations from a re-analysis of the deposited data

Results flagged for a closer look

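Of the 103 members, 6 (5.83%, against 17.8% of all tested loci) moved with ethylene in opposite directions in the quadruple mutant and in ein3eil1, with no overlap between treated and untreated libraries in either line. Treated and untreated libraries carry opposite code letters in the 2 lines, and the difference between the lines was not tested. BCA3 had a log2 fold change of 1.16 in the quadruple mutant and -1.76 in ein3eil1. ARGOS had 1.01 in the quadruple mutant and -0.65 in ein3eil1, GEX1 1.24 and -0.37, and IQD15 0.46 and -1.19. AT1G76470 had -0.88 in the quadruple mutant and 0.43 in ein3eil1, and AT4G33720 had -2.09 and 1.00. AT4G33720 was at or below 0.413 CPM in all 8 of these libraries, and BCA3 at or below 0.495 CPM.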

How the results depend on the processing

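The quadruple mutant's ethylene response gave 28 called members, and 12 in a fit of only the 2 groups compared. It gave 12 to 28 with 1 library left out, 42 without the filter, 29 with DESeq2's size factors, 32 in DESeq2, 23 with halved counts and 27 without RBCS2B. The untreated comparison with ein3eil1 gave 22, 34 without the filter and 13 to 20 with 1 library left out. The treated quadruple mutant against untreated ein3eil1 gave 38 and 23 to 30 with 1 library left out. Without replicate 1 of the treated quadruple mutant the response reversed for PRP1 (-3.04 to 10.12 with 1 library left out, the lowest from 0 reads in replicate 2), DXPS1 (-0.41 to 3.52), XTH11 (-0.14 to 4.07) and RBCS2B (-0.01 to 6.08), and the members' median level there was 6.34% of treated rhd6rsl1, against 7.35% with it. For single genes 700 values kept direction and call, 168 lost the call and 4 reversed; beyond smaller samples, the cause was not tested. The rule gave 103 loci, 57 at 6-fold, 59 at a limit of 10%, 98 with TMM sizes and 99 to 108 with 1 library left out, and 83 members were kept in each of these omissions. Among the non-members of the 3 ethylene lists, 16 were called with ethylene in Col-0, and 14 to 16 with 1 library left out. With a replicate block the 3 comparisons gave 28, 22 and 37 calls; deviations of same-numbered libraries correlated at -0.0124, -0.0458 and -0.0223, so the numbers were not taken as pairs. Apart from the fit without replicate 1 of the treated quadruple mutant, shares of all tested loci are not given for the alternative fits. Their counts of called members therefore cannot be set against all loci. At levels under 1 CPM the fold changes rest on few reads.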
